A study of Homo sapiens with 24 samples.

Results

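The genes described here were the named genes of the array whose symbols begin like a collagen chain (COL, a number, A, a number), a laminin chain (LAMA, LAMB or LAMC with a number) or an integrin chain (ITGA, or ITGB with a number), with the probeset of the highest mean kept for each symbol. The rule found 8 of the 14884 genes named in the platform table. These were 1 structural chain (COL26A1), 4 antisense RNAs (COL4A2-AS1, COL18A1-AS1, COL18A1-AS2 and ITGB2-AS1) and 3 proteins whose symbols carry an integrin name because they bind an integrin tail (ITGB1BP1, ITGB1BP2 and ITGB3BP). Of the chains themselves, the table named 1 of 45 collagen chains, 0 of 12 laminin chains and 0 of 26 integrin chains, so that collagens, laminins and integrins as families were not analysed here. Only COL26A1 and ITGB1BP1 reached the mean log2 signal of 6.54 that was required for testing, and the other 6 are given as values.

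OVCAR-3 is an epithelial cell line from a high-grade serous ovarian cancer that had recurred with platinum resistance, and all cells of the series were of this 1 line. Polysome RNA (heavy sucrose gradient fractions, mRNA carrying several ribosomes) and total RNA, drawn from the lysates that were also loaded on the gradients, were each measured after 4 treatments of 24 h. The combination group received the mTORC1/2 kinase inhibitor INK128 at 0.25 µM for 19 h and then also the DNA-crosslinking drug carboplatin at 1 µM for 5 h, the INK128 group received 0.25 µM INK128, the carboplatin group received 1 µM carboplatin at the time it was added to the combination plates, and the DMSO group received vehicle. Signals are log2 values and relative within an array, so that a change in RNA per cell of all genes together cannot be told apart from no change.

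Collagens are triple-helical proteins of the extracellular matrix, laminins are the cross-shaped trimers of basement membranes, and integrins are the paired alpha and beta chains through which cells hold on to both. Collagen XXVI, the product of COL26A1, is a little-studied collagen with an EMI domain, first described in mouse testis and ovary. ITGB1BP1 (ICAP-1) binds the cytoplasmic tail of the integrin beta 1 chain and holds back integrin activation by competing with talin. ITGB1BP2 (melusin) is a muscle chaperone that binds the same tail, and ITGB3BP (CENP-R) is best known as a centromere protein. mTORC1 promotes translation of capped mRNAs, which is why the fraction of each mRNA on polysomes was of interest in cells given INK128.

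Of the 24 arrays, 20 were used: 3 combination, 3 INK128, 4 carboplatin and 3 DMSO arrays of polysome RNA, and 2 INK128, 3 carboplatin and 2 DMSO arrays of total RNA. The other 4 (by label carboplatin polysome 1, carboplatin total 1 and combination total 1 and 2) hold value for value the columns that the supplementary datasets give to other conditions, and were left out, which leaves no array for the combination in total RNA. Only 16 arrays were found in the datasets. The labels of the 8 others, among them every array of the INK128 group, could not be checked in this way. Each array was also placed between the fractions by all 7442 genes tested, with 0 for the mean of the other total RNA arrays and 1 for the mean of the other polysome arrays. By this measure DMSO polysome 1 lay at 0.26 and carboplatin polysome 022-2 at 0.57, below the other polysome arrays (0.77 to 1.24), while INK128 total 1 lay at 0.54, above the other total RNA arrays (-0.13 to 0.07). All 6 polysome arrays with INK128 lay between 1.09 and 1.24, against 0.26 to 1.20 for the 7 without it. The array labelled carboplatin polysome 1 lay at 0.06 and the array labelled combination total 1 at 0.96. Epithelial ovarian markers were high (PAX8 12.19, EPCAM 10.60 and WT1 9.33, mean log2 signals of 24 arrays), and 11 of the 12 in the table reached the level for testing. The fibroblast markers DCN (2.78) and LUM (4.04), the leukocyte markers CD14 (4.40) and CD53 (4.54) and the endothelial markers PECAM1 (5.06) and VWF (5.49) did not, although FN1 (12.68), VIM (8.07), CD68 (9.73), ENG (7.66) and CLDN5 (6.75) of the same lists did.

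COL26A1 mRNA was more abundant in polysome RNA than in total RNA in every treatment that could be compared. With INK128 its log2 signals were 11.26, 11.40 and 11.43 in polysome RNA and 10.75 and 10.18 in total RNA. With carboplatin they were 10.58, 10.62, 10.75 and 10.92 in polysome RNA and 9.93, 9.94 and 10.14 in total RNA. In DMSO they were 10.53, 11.12 and 10.94 in polysome RNA and 10.10 and 10.09 in total RNA. Within each of the 3 treatments the polysome arrays all lay above the total RNA arrays. Groups of 2 to 4 arrays can separate without a change. Here and below, the share of all genes so separated was not counted. Averaged over these treatments the log2 difference of polysome over total RNA was 0.79 (SE 0.0977, 95% interval 0.59 to 1.00), a ratio of 1.73, with an adjusted p of 1.99e-05 in limma. In this comparison 49.1% of all genes tested passed, 32.9% of them as higher in polysome RNA and 16.2% as lower (percentages of all genes tested), and the median of all genes was 0.10. Without the 3 arrays nearest the other fraction (DMSO polysome 1, carboplatin polysome 022-2 and INK128 total 1) the difference of COL26A1 was 0.96 (adjusted p 3.15e-07), a choice made after the data were seen. In the 5 pairs of polysome and total RNA arrays (3 carboplatin, 2 DMSO) that carry one number in the datasets, a pairing also added after the data were seen, it was 0.70 within pairs (adjusted p 0.000529).

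**Figure D1:**
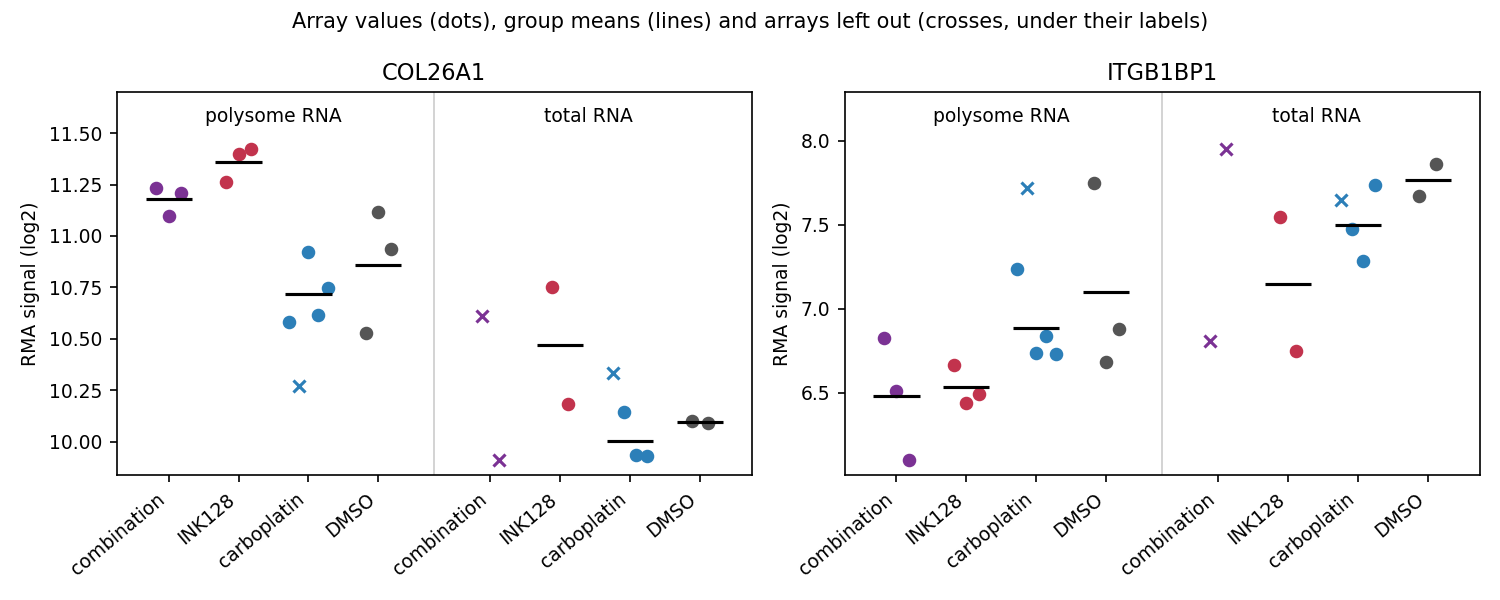
RMA log2 signal (y axis) of COL26A1 and ITGB1BP1 on each array, by treatment and RNA fraction (x axis), where dots are the 20 arrays used, lines the group means and crosses the 4 arrays left out, drawn under their labels. COL26A1 polysome arrays lay above total RNA arrays within INK128, carboplatin and DMSO, and ITGB1BP1 polysome arrays lay below them within INK128 and carboplatin.

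COL26A1 on polysomes was higher where INK128 was present, as an average over the arrays with and without carboplatin. The group means were 11.18 ± 0.07 with the combination, 11.36 ± 0.09 with INK128, 10.72 ± 0.16 with carboplatin and 10.86 ± 0.30 in DMSO (SD, n = 3, 3, 4 and 3). The combination arrays (11.10, 11.21 and 11.23) lay above every carboplatin array and the INK128 arrays above every DMSO array, whereas the combination overlapped DMSO polysome 2. With 3 or 4 arrays a group, such separation can also arise without a change. Over the 6 arrays with INK128 the lowest, median and highest values were 11.10, 11.25 and 11.43, against 10.53, 10.75 and 11.12 over the 7 arrays without it. The mean of combination and INK128 over the mean of carboplatin and DMSO was 0.48 on the log2 scale (SE 0.103, 95% interval 0.26 to 0.70, 39.8% more signal), with an adjusted p of 0.00348 in limma. In this comparison 30.8% of all genes passed, 12% as higher and 18.8% as lower (894 and 1400 genes, or 1177 and 1136 with quantile normalisation within each fraction). The call was kept in each of the 13 fits that left out 1 array (log2 0.40 to 0.55, adjusted p 0.00142 to 0.0128).

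Taken against DMSO alone in limma with no block, the same mRNA was 0.50 higher with INK128 (SE 0.150, 95% interval 0.18 to 0.82, adjusted p 0.0538). With the combination it was 0.32 higher (SE 0.150, interval -0.000732 to 0.64, adjusted p 0.155), and neither passed the threshold in this unpaired fit. With the replicate number as a block the difference for INK128 was 0.50 (SE 0.142, adjusted p 0.0419) and passed, in a fit without the arrays of coded numbers that called 948 genes in all, against 609 as reported. The same arrays with no block called 699 genes and 0 of the 2 genes tested, so that the call of COL26A1 depended on the pairing. Unpaired, 0 of the 2 genes tested passed in either comparison, beside 8.18% and 13.1% of all genes (1808 and 2423 genes had an unadjusted p under 0.05). Quantile normalisation within each fraction turned the split for the combination to 525 genes higher and 471 lower (339 and 637 as deposited). Both comparisons use the same DMSO arrays. With no block the first passed without combination polysome 3 (adjusted p 0.0443) or without DMSO polysome 2 (0.0215), and over the 13 fits its adjusted p ranged from 0.0215 to 0.187.

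The signal of COL26A1 also moved with the position of the array between the fractions. Among the polysome arrays without INK128, DMSO polysome 1, the one nearest to total RNA, had the lowest value (10.53) and DMSO polysome 2, at a position of 1.20, the highest (11.12). With the position of each array added to the fit as a covariate, a choice made after the data were seen, the difference between INK128 present and absent was 0.24 (adjusted p 0.0824) and no longer passed. Without the 2 polysome arrays nearest to total RNA it was 0.38 (adjusted p 0.00764) and still passed. All polysome arrays with INK128 lay at the far polysome end, so that the drug and the position of the array cannot be fully told apart. The position was also computed from these same arrays, among which INK128 was more frequent in polysome than in total RNA. It can therefore carry part of a drug effect, which the covariate would then remove, so the loss of the call does not decide between them.

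**Figure D2:**
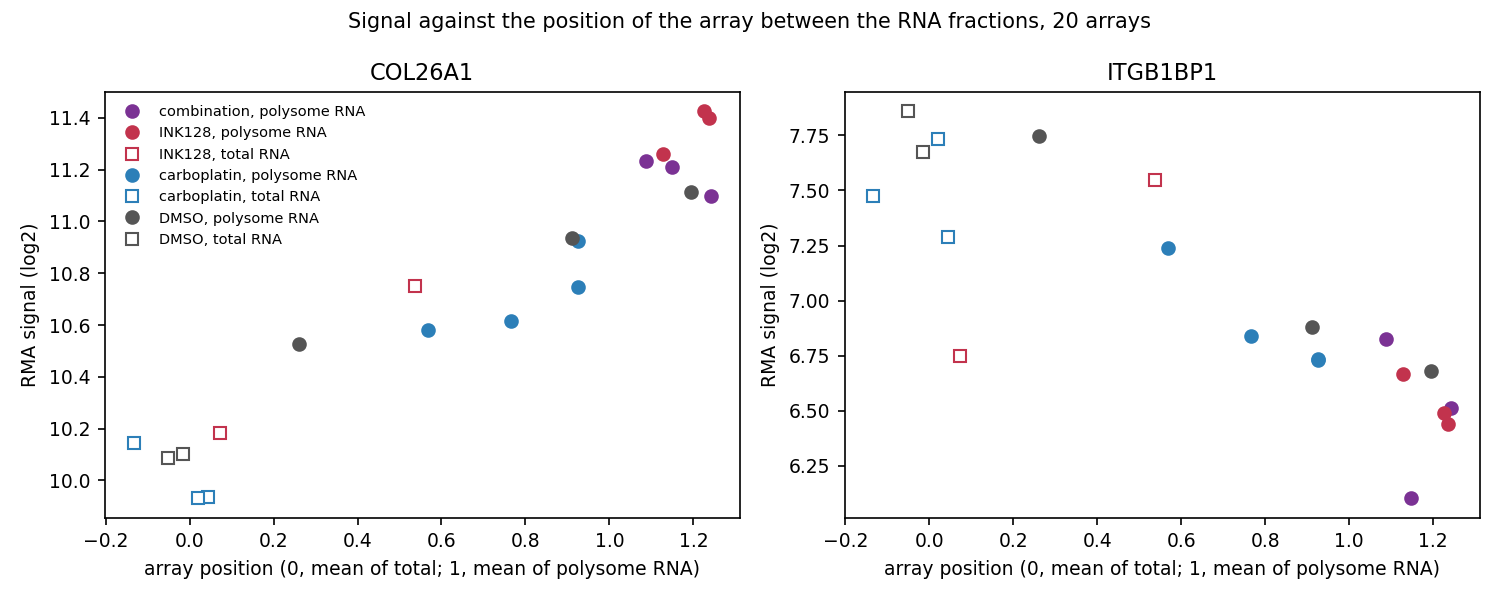
RMA log2 signal (y axis) of COL26A1 and ITGB1BP1 against the position of each of the 20 arrays between total RNA (0) and polysome RNA (1) over all genes tested (x axis), coloured by treatment, filled for polysome and open for total RNA. COL26A1 was high and ITGB1BP1 low on the arrays at the polysome end, where the 6 polysome arrays with INK128 lay between 1.09 and 1.24.

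ITGB1BP1, the integrin beta 1 tail binding protein, was distributed the other way, with less signal in polysome RNA than in total RNA. With INK128 its log2 signals were 6.67, 6.44 and 6.49 in polysome RNA and 7.55 and 6.75 in total RNA. With carboplatin they were 6.73, 6.73, 6.84 and 7.24 in polysome RNA and 7.29, 7.47 and 7.74 in total RNA. In DMSO they were 7.75, 6.68 and 6.88 in polysome RNA and 7.67 and 7.86 in total RNA. The fractions did not overlap with INK128 or carboplatin, and in DMSO they overlapped through DMSO polysome 1. The mean log2 difference of polysome over total RNA was -0.63 (SE 0.154, 95% interval -0.95 to -0.31, ratio 0.646), with an adjusted p of 0.00258 in limma, and it passed in each of the 20 fits that left out 1 array (adjusted p 0.000166 to 0.0145). Without the 3 arrays nearest the other fraction it was -0.64 (adjusted p 0.000208), and within the 5 pairs -0.59 (adjusted p 0.00563).

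On polysomes ITGB1BP1 was lower where INK128 was present. Its group means were 6.48 ± 0.36 with the combination, 6.53 ± 0.12 with INK128, 6.89 ± 0.24 with carboplatin and 7.10 ± 0.57 in DMSO (SD, n = 3, 3, 4 and 3). The 6 arrays with INK128 had a lowest, median and highest value of 6.10, 6.50 and 6.83, against 6.68, 6.84 and 7.75 over the 7 arrays without it. The INK128 arrays all lay below the DMSO arrays, while the combination arrays (6.83, 6.51 and 6.10) overlapped both carboplatin and DMSO. How common such separation was among all genes was not counted. The log2 difference between INK128 present and absent was -0.49 (SE 0.170, 95% interval -0.85 to -0.12, ratio 0.713), with an adjusted p of 0.0420 in limma, the other of the 2 genes called. This call was lost in 8 of the 13 fits that left out 1 array: without INK128 polysome 1 (adjusted p 0.0560), 2 (0.0924) or 3 (0.0850), combination polysome 2 (0.0680) or 3 (0.0993), carboplatin polysome 2 (0.0590) or 022-2 (0.0764), or DMSO polysome 1 (0.0775), the last of which also brought the difference to -0.33. Without the 2 polysome arrays nearest to total RNA it was -0.27 (adjusted p 0.116), and with the array position as a covariate -0.02 (adjusted p 0.944). The limit of this covariate given for COL26A1 holds here as well. Against DMSO alone the differences were -0.57 with INK128 (SE 0.248, interval -1.10 to -0.04, adjusted p 0.173) and -0.62 with the combination (SE 0.248, interval -1.16 to -0.09, adjusted p 0.104). The comparison with the combination passed without DMSO polysome 2 (-0.83, adjusted p 0.0393). It also passed with the replicate number as a block, in the fit without the arrays of coded numbers.

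Carboplatin alone moved neither mRNA past the threshold, and its effect was not distinguishable with and without INK128. In polysome RNA the log2 difference of carboplatin over DMSO was -0.14 for COL26A1 (95% interval -0.44 to 0.16) and -0.22 for ITGB1BP1 (-0.72 to 0.28), both with an adjusted p of 1.00. Of all genes tested 0% passed (175 had an unadjusted p under 0.05). The combination over INK128 gave -0.18 for COL26A1 (-0.50 to 0.14, adjusted p 0.916) and -0.05 for ITGB1BP1 (-0.59 to 0.48, adjusted p 0.976), with 0% of all genes passing and 207 at an unadjusted p under 0.05. The difference between these carboplatin effects, with INK128 minus without, was -0.04 for COL26A1 (-0.48 to 0.40) and 0.16 for ITGB1BP1 (-0.56 to 0.89), with 0% of all genes passing and 1.37% at an unadjusted p under 0.05.

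In total RNA the 2 INK128 arrays disagreed with each other for both mRNAs. COL26A1 averaged 10.47 ± 0.40 with INK128, 10.00 ± 0.12 with carboplatin and 10.09 ± 0.01 in DMSO (SD, n = 2, 3 and 2), and ITGB1BP1 averaged 7.15 ± 0.57, 7.50 ± 0.23 and 7.77 ± 0.13 in the same groups. INK128 over DMSO was 0.37 for COL26A1 (95% interval -0.11 to 0.85, adjusted p 0.443) and -0.62 for ITGB1BP1 (-1.21 to -0.03, adjusted p 0.294), and 0.161% of all genes passed. The differences were in the same directions as on polysomes. Without INK128 total 1, the array that lay toward the polysome end, they were 0.09 and -1.02, and without INK128 total 2 they were 0.66 and -0.22. Carboplatin over DMSO was -0.09 for COL26A1 (-0.53 to 0.35) and -0.27 for ITGB1BP1 (-0.81 to 0.28), with 0% of all genes passing and 198 at an unadjusted p under 0.05.

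Translation efficiency, the log2 difference of polysome over total RNA, was compared between INK128 and DMSO to set the polysome change against the change in abundance. The difference was 0.13 for COL26A1 (95% interval -0.40 to 0.66) and 0.05 for ITGB1BP1 (-0.78 to 0.88), both with an adjusted p of 0.999, and 0% of all genes passed (94 had an unadjusted p under 0.05). This fit was unpaired, because which INK128 polysome and total RNA arrays share a lysate was not established here. A change on polysomes apart from the change in total RNA was thus not detectable for either mRNA with these arrays.

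**Figure D3:**
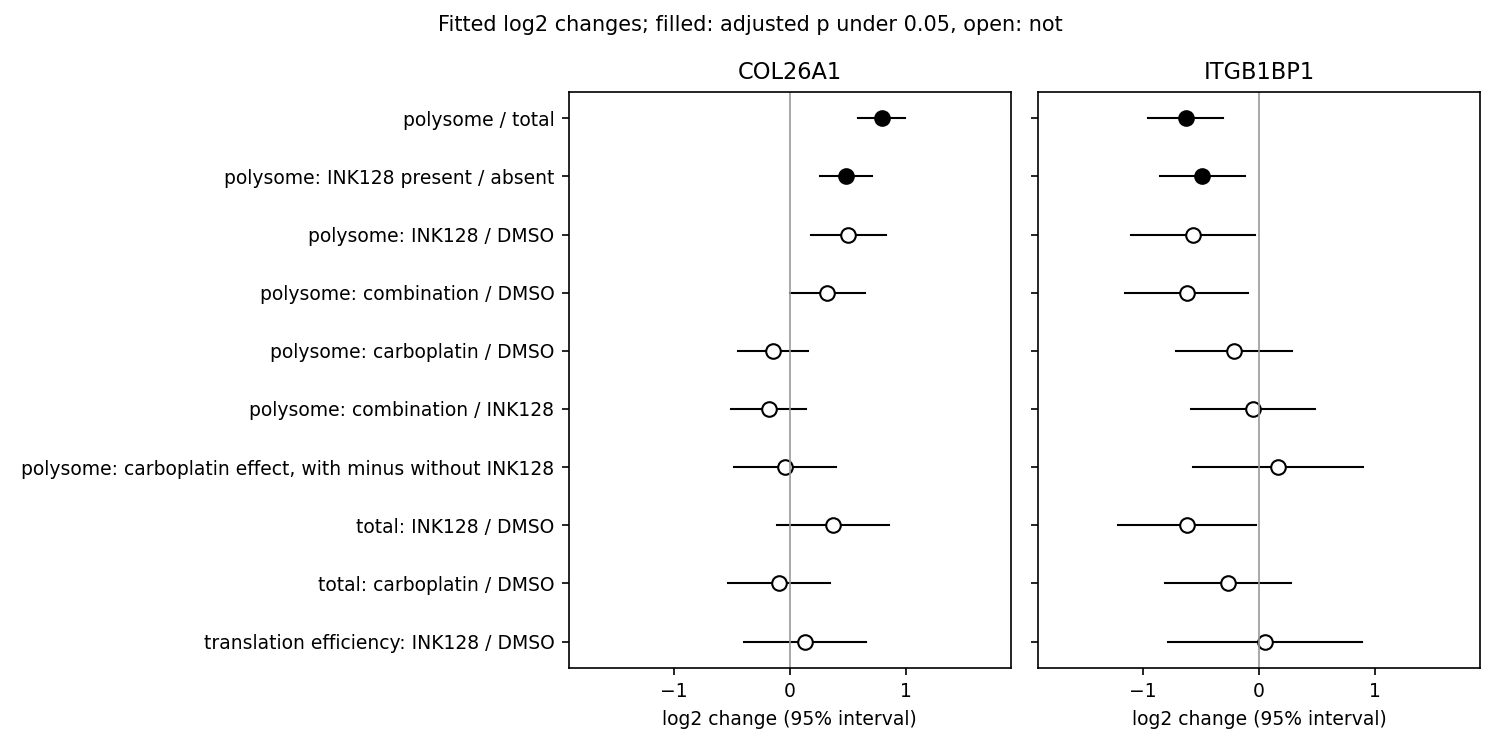
Fitted log2 change (x axis) with its 95% interval (line) for COL26A1 and ITGB1BP1 in each of the 10 comparisons (y axis, the group named before the slash over the one after it), filled where the adjusted p was under 0.05. Polysome over total RNA was 0.79 for COL26A1 and -0.63 for ITGB1BP1, and INK128 present over absent was 0.48 and -0.49.

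For the combination in total RNA only the arrays in conflict exist. The 2 arrays labelled so are carboplatin polysome RNA and carboplatin total RNA in the datasets. They had COL26A1 values of 10.61 and 9.91 and ITGB1BP1 values of 6.81 and 7.95, in that order, and the first resembled polysome RNA and the second total RNA. The other pair left out, carboplatin polysome 1 and carboplatin total 1 by label and combination total RNA in the datasets, had 10.27 and 10.33 for COL26A1 and 7.72 and 7.65 for ITGB1BP1, within 0.1 of each other in both genes. With the datasets' conditions combination over DMSO in total RNA was 0.21 for COL26A1 (adjusted p 0.653) and -0.08 for ITGB1BP1 (adjusted p 0.907). With the labels it was 0.17 (adjusted p 0.879) and -0.39 (adjusted p 0.766).

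The 6 other symbols had mean signals between 3.37 and 6.16, below the level for testing. ITGB3BP averaged 5.93 ± 0.07 with the combination, 5.85 ± 0.12 with INK128, 5.94 ± 0.31 with carboplatin and 6.22 ± 0.12 in DMSO polysome RNA (SD, n = 3, 3, 4 and 3). The combination and INK128 arrays lay below every DMSO array but within the carboplatin range. COL4A2-AS1, from within the gene of a basement membrane collagen IV chain, was 3.39, 3.68 and 3.78 with the combination, 3.47, 3.56 and 3.77 with INK128, 3.18, 3.21, 3.23 and 3.49 with carboplatin and 3.24, 3.28 and 3.38 in DMSO polysome RNA. The combination and INK128 arrays of this RNA lay above every DMSO array and overlapped carboplatin polysome 3. For neither RNA was the share of all genes so separated counted. When all 14884 named genes were fitted without the filter, 18.2% of them passed with INK128 present. Among the 6, COL4A2-AS1 was 0.32 higher (adjusted p 0.0245), a count of 1 in 6 that is close to that share, and the 5 others did not pass: ITGB2-AS1 was 0.31 higher (0.170), COL18A1-AS1 0.18 higher (0.182), COL18A1-AS2 0.05 higher (0.832), ITGB1BP2 at -0.06 (0.688) and ITGB3BP at -0.19 (0.249). In the same fit ITGB1BP1 missed the threshold (adjusted p 0.0544). Between polysome and total RNA the log2 differences of these 6 ran from -0.18 for ITGB2-AS1 to 0.12 for COL18A1-AS1, and none passed in the fit without the filter, in which 30.4% of all genes did.

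**Figure D4:**
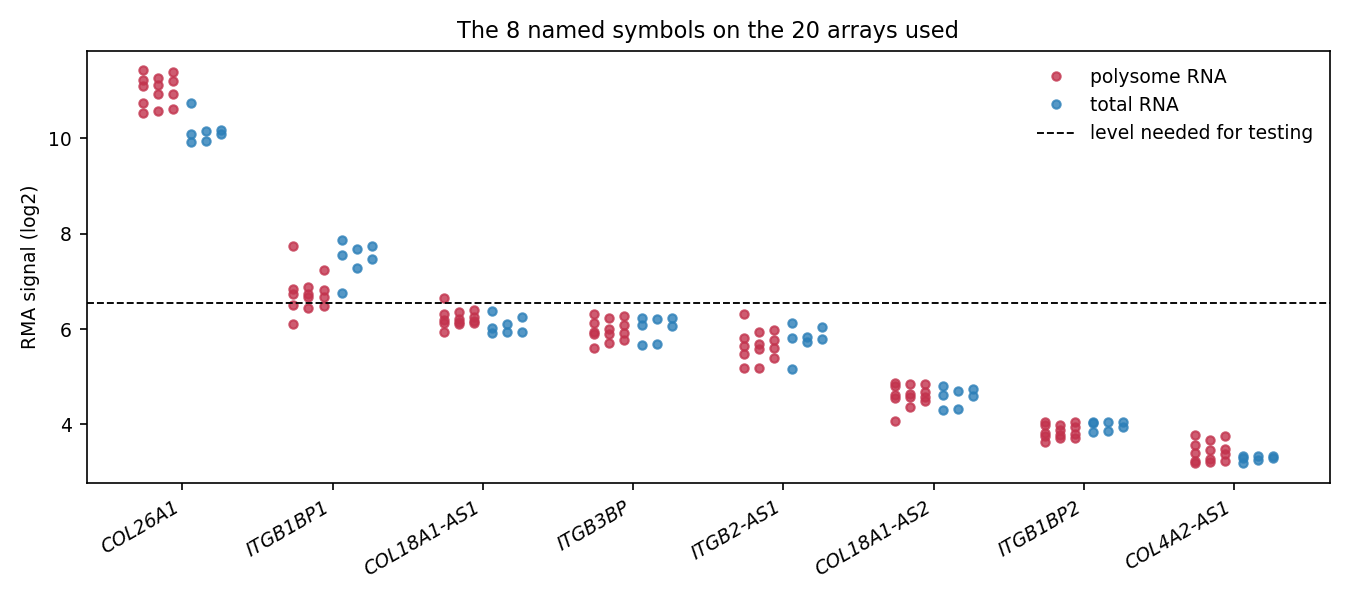
RMA log2 signal (y axis) of the 8 symbols (x axis) on the 20 arrays used, polysome RNA left and total RNA right, with the level needed for testing (6.54) as a dashed line. COL26A1 and ITGB1BP1 averaged above the line, and the means of the other 6 lay between 3.37 and 6.16.

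The antisense RNAs lie over collagen or integrin genes that the table does not name. COL4A2-AS1, COL18A1-AS1 and COL18A1-AS2 lie inside the span of COL4A2 or COL18A1 (collagen XVIII, the precursor of endostatin), and ITGB2-AS1 overlaps ITGB2, the leukocyte beta 2 chain. The paper names the Human Gene 2.0 ST array and the manufacturer's protocol without further detail of the labelling. Whether the host genes contribute to the signal of these probesets was not tested. COL18A1-AS1 ranged from 5.92 to 6.64 and COL18A1-AS2 from 4.07 to 4.88 over the 20 arrays. ITGB1BP2 stayed between 3.62 and 4.06, and ITGB2-AS1 between 5.17 and 6.32.

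Because so few chains were named, the genes that process, anchor or read collagens and laminins were counted as well, to be read against the 12% of all genes that were higher and the 18.8% that were lower with INK128 present. These lists were chosen with earlier results of the same data known, so the counts describe the lists and do not test them. On polysomes 9 of 11 other basement membrane genes were higher with INK128 present and 1 was lower, with a median log2 change of 0.62 against -0.06 for all genes. HSPG2 (perlecan) rose by 1.18 (adjusted p 9.89e-05), FRAS1 by 1.08 (0.00285), NTN4 (netrin-4, which binds laminin) by 0.99 (9.83e-05), and NID1 (nidogen-1, which links laminin to collagen IV) by 0.90 (0.000519), the last chosen after its values were seen, as was the 1 gene that was lower, EFEMP1 (fibulin-3, -0.50, adjusted p 0.00731). In collagen processing 5 of 14 were higher and 0 lower (median 0.11), among them BMP1, the procollagen C-proteinase, at 0.74 (8.29e-05), P3H1, a prolyl hydroxylase, at 0.63 (0.00150) and LOX, which crosslinks collagen, at 0.44 (0.0195). In the integrin adhesion complex 6 of 25 were higher and 4 lower (median 0.21), led by TNS3 (tensin 3) at 0.88 (3.79e-05), PLEC (plectin) at 0.67 (0.00194) and FERMT2 (kindlin-2, an integrin activator) at -0.56 (0.00489). Of other matrix receptors 6 of 14 were higher and 0 lower (median 0.08), with BCAM, a laminin receptor, at 0.83 (0.000316) and DDR1, a collagen receptor kinase, at 0.43 (0.00546). Of proteases and inhibitors 3 of 10 were higher and 0 lower (median 0.18), with MMP15 at 0.89 (4.38e-05) and TIMP2 at 0.39 (0.00173).

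Many of these genes were, like COL26A1, higher in polysome RNA. Averaged over the treatments, 10 of 11 other basement membrane genes, 11 of 14 processing genes, 13 of 25 adhesion complex genes, 9 of 14 receptors and 5 of 10 proteases and inhibitors were higher in polysome than in total RNA, and 0 of any list was lower, where 32.9% of all genes were higher and 16.2% lower. Within the 5 pairs the counts were 5 of 11, 5 of 14, 8 of 25, 8 of 14 and 3 of 10 in the same order, beside 25.1% of all genes higher. In total RNA 0 genes of the 5 lists passed for INK128 over DMSO, where only 0.161% of all genes passed, so that this count does not set the lists apart. The list medians there ran from 0.08 to 0.56, against -0.04 for all genes. The highest, 0.56, was that of the basement membrane genes, whose median for INK128 over DMSO on polysomes was 0.78. In translation efficiency 0 genes of the 5 lists passed for INK128 over DMSO, where 0% of all genes passed. With the array position as a covariate the counts with INK128 present were 5 higher and 1 lower of 11 for the basement membrane genes (median 0.39), 2 and 0 of 14, 3 and 3 of 25, 1 and 1 of 14, and 2 and 0 of 10 for the other lists in the order above. Of all 7442 genes, 585 were higher and 862 lower in that fit. Without the 2 polysome arrays nearest to total RNA the basement membrane count was again 9 higher and 1 lower of 11, beside 826 higher and 1252 lower of all 7442 genes.

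**Figure D5:**
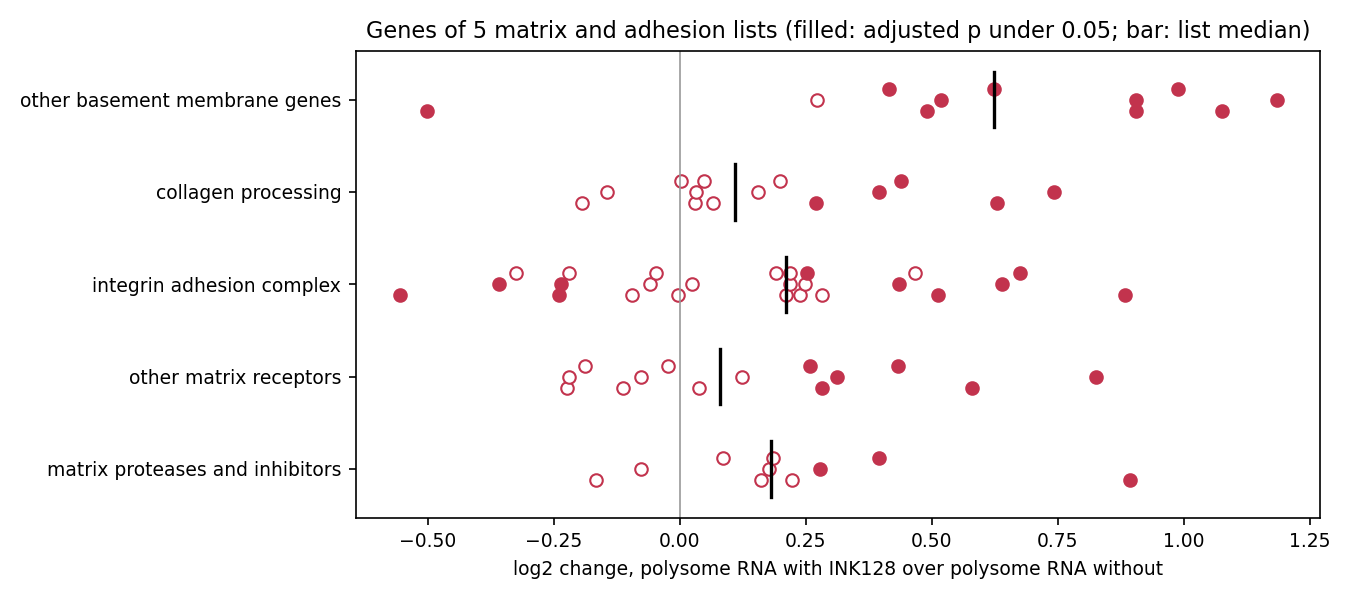
Log2 change of polysome RNA with INK128 over polysome RNA without (x axis) for each tested gene of the 5 lists (y axis), filled where the adjusted p was under 0.05, with a bar at the list median. The basement membrane genes had a median of 0.62 with 9 of 11 higher, and the other lists had medians between 0.08 and 0.21.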

How the data were processed

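RNA of OVCAR-3 cells was hybridised by the authors to 24 Affymetrix Human Gene 2.0 ST arrays. Values were deposited as log2 signals, 1 for each of 53617 probesets, made by the authors with RMA (background correction, quantile normalisation, summary) in Affymetrix Expression Console 1.4.1. Scanner intensities and the genome build are not given in the sources used here. Array medians were 4.97 to 5.13, and the number of arrays limits the precision. Probesets were named from the platform annotation (16098 with 1 symbol, 37519 with none), and all 8 members matched RefSeq gene IDs. Testing was limited to the 7442 genes that averaged 6.54 or more over the arrays (the named genes' median).

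Groups came from the labels. Where the values of an array equalled, within 0.0001, a column of the supplementary datasets for another condition (4 arrays), it was left out. Comparisons used lmFit and eBayes (limma 3.58.1, R 4.3.3), with no block, for polysome arrays, total RNA arrays and both together, and p-values were adjusted by Benjamini and Hochberg over all genes tested (threshold 0.05). Files were read with pandas 2.3.3 and data.table, version 1.17.8. The script was tested on simulated data. The study names 2 complete sets of biological replicates, performed independently, but not which arrays belong to which. Polysome groups held 3 or 4 arrays here, more than the 2 sets named. The labels name no cultures, so p-values measure the spread between these samples, part of which may be technical. Polysome and total RNA came from the same lysates, and the datasets' column numbers pair 5 polysome with 5 total RNA arrays (r of deviations from group means 0.02 to 0.54). Same-numbered INK128 and DMSO polysome arrays deviated together in all 3 pairs (r 0.16 to 0.36). Combination and INK128 arrays did so at 0.09 to 0.44, also in 3 pairs, and combination and DMSO arrays ran from -0.03 to 0.30. The reported fits do not use the pairing by replicate number. For INK128 over DMSO the fit with that number as a block is given beside them. Calls that the block changed in other comparisons are given under the dependence on the processing. Members were named by passing the threshold or by the smallest p of a comparison, and list genes by size of change, up to 3 a list. The members and lists were chosen with earlier results of these data known. Array position was the slope of each array's difference from the mean of total RNA on the difference of polysome from total RNA among the other arrays.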

Additional observations from a re-analysis of the deposited data

Results flagged for a closer look

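COL4A2-AS1 on carboplatin polysome 3 (3.49) stood apart as the highest of the 4 carboplatin polysome arrays, at a signal below the level for testing. Among groups of this size chance sets about 1 in 20 apart, and 8 genes were looked at. Of the arrays left out, COL26A1 was above every DMSO total RNA array on those labelled combination total 1 (10.6) and carboplatin total 1 (10.3), and ITGB1BP1 on the one labelled combination total 2 (7.95).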

How the results depend on the processing

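Of 528 recomputed values of COL26A1 and ITGB1BP1, 482 kept their direction and their side of the threshold, 9 gained a call, 15 lost one and 22 changed sign, none of the last called; the cause was not tested unless named. Of the 2 genes tested, the number called for INK128 over DMSO in polysome RNA, 0 as reported, was 1 with the datasets' conditions, 2 with array weights and 1 with the replicate number as a block (without the arrays with coded numbers such as 022-2), and 0 to 1 when single arrays were left out. For combination over DMSO it was 1 with the block, 1 at the thresholds of the methods (unadjusted p under 0.05, log2 change of at least 0.6, or 1 in total RNA) and 0 to 1 with single arrays left out. For INK128 present over absent, 2 as reported, it was 1 with the stricter filter, which left ITGB1BP1 untested, 1 without those arrays and with no block, 0 at the methods' thresholds, 1 without the 3 arrays nearest the other fraction, 0 with the array position as a covariate and 1 to 2 with single arrays left out. For polysome over total RNA it was 1 with the stricter filter. The 2 alternatives on array position were chosen after seeing the data.

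With the block COL26A1 passed for INK128 over DMSO (adjusted p 0.0419) and ITGB1BP1 for combination over DMSO (0.0305), and of the same arrays ITGB1BP1 passed for INK128 present over absent with it (0.0124) but not without (0.107, all limma); no other call of the 2 genes changed. Same-numbered polysome arrays correlated at -0.03 to 0.44 (median 0.17, different numbers -0.11). Same-numbered polysome and total RNA arrays by label, some numbered differently in the datasets, correlated at -0.34 to 0.28. The label numbers were not used as pairs in the reported fits. Sign changed for ITGB1BP1 for combination over INK128 (0.0612 with array weights, -0.23 to 0.14 with single arrays left out), for carboplatin over DMSO (-0.43 to 0.11) and for the carboplatin effect with INK128 minus without (-0.00326 with all 24 arrays by label, -0.0411 without the 3 arrays, -0.16 to 0.38), and COL26A1 for that last difference (0.0501 by label, 0.0350 with quantile normalisation within fractions, 0.0599 with the block, 0.0818 without the 3 arrays, -0.17 to 0.13). In translation efficiency leaving out single arrays gave -0.15 to 0.41 for COL26A1 and -0.35 to 0.45 for ITGB1BP1.

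Over all genes, the number called ranged over the settings from 301 to 3933 for INK128 over DMSO on polysomes (609 as reported, 948 with the block), 44 to 2975 for combination over DMSO (976, 1519 with the block), 683 to 3881 for INK128 present over absent (2294), 0 to 304 for INK128 over DMSO in total RNA (12), 905 to 4519 for polysome over total RNA (3653), and from 0 (as reported) to 234 for carboplatin on polysomes, 25 for combination over INK128, 41 for the difference of carboplatin effects, 53 for carboplatin in total RNA and 48 for translation efficiency. Depth is not defined for arrays, and groups of 2 to 4 arrays limit every interval. The covariate was not run across both fractions.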
